A study of Homo sapiens with 12 samples.

Results

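Interferon-stimulated genes were examined in A172 cells, an adherent line established from a human glioblastoma. A list of 41 gene symbols chosen by name defined the set, and for 39 of them the array had a probe set carrying that symbol alone. STAT2 and GBP1 had no such probe set and were not analysed here. The 39 genes were part of 18417 genes tested. Transcript levels were read on GeneChip Human Gene 1.0 ST arrays in 12 cultures harvested on day 4, in 4 groups of 3 arrays. Wild-type A172 cells were not transfected, the mock line carried the empty pcDNA3.1 vector, and clones 7 and 8 (A172-hHSS1 C#7 and C#8) carried pcDNA3.1 with the coding sequence of hHSS1 and a C-terminal His tag. Stable clones were kept under G-418, so that wild-type cells also differed from the transfected lines in drug selection. The gene hHSS1 is named EMC10 here, its present symbol. The methods of the study call the A172 cultures biological replicates, but each group was a single line. The p-values below thus compare cultures of these few lines, and what belongs to the transgene and what to the isolation of a clone cannot be told apart. The labels name no added interferon.

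Type I interferons signal through the receptor chains IFNAR1 and IFNAR2 and the kinases JAK1 and TYK2. These activate the factor ISGF3, which contains IRF9 and binds the interferon-stimulated response element (ISRE) in the promoters of many of the genes described here. Interferon gamma acts mainly at a different element, the gamma-activated site (GAS). The products of these genes sense or degrade viral RNA, block translation, entry or release of viruses, attach the ubiquitin-like protein ISG15, and prepare peptides for MHC class I. Some tumour lines keep part of this programme on without added interferon.

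The RefSeq promoter table (GRCh38.p14), with 250 bases before and 50 bases after each start, held 31 of the 39 genes. The ISRE core (GAAA, then any 2 bases, then GAAA again), read on both strands, so also as TTTC, 2 bases and TTTC, was present for 21 of the 31 genes (67.7%), against 4.38% of the 27305 genes in the table. The GAS core TTCNNNGAA, which is its own reverse complement, was present for 10 of the 31 genes (32.3%), against 9.38% of all. The 160 bases before the start are shown for 7 genes whose levels are described below, in lower case and 5′ to 3′ on the strand of the gene, with each ISRE core in capitals. They lie at chr10:89392463-89392622 on the plus strand for IFIT1, chr7:93117980-93118139 on the minus strand for SAMD9 and chr7:93148386-93148545 on the minus strand for SAMD9L. Those of OAS3, IFI44 and HERC5 lie on the plus strand at chr12:112938314-112938473, chr1:78649629-78649788 and chr4:88456959-88457118, and that of BST2 on the minus strand at chr19:17405631-17405790.
IFIT1: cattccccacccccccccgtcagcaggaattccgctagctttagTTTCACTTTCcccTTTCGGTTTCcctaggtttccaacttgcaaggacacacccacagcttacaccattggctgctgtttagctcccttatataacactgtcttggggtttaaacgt
SAMD9: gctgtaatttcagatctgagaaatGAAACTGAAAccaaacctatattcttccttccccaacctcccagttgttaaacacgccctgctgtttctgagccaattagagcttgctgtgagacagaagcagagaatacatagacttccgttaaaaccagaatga
SAMD9L: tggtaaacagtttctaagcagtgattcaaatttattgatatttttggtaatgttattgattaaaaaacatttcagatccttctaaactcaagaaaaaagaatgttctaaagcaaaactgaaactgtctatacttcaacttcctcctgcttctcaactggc
OAS3: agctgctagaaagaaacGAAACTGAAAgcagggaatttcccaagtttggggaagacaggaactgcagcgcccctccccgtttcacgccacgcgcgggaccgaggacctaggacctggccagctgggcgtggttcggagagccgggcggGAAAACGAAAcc
IFI44: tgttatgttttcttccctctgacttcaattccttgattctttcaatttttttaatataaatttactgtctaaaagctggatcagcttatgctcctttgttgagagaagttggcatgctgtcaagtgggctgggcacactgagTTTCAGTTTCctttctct
HERC5: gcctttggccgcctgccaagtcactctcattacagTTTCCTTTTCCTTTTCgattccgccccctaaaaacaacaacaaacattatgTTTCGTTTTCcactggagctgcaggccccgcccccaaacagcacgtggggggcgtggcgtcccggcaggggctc
BST2: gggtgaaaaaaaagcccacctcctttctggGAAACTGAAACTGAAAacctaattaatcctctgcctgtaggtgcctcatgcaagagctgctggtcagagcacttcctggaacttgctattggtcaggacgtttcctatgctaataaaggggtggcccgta
IFIT1 held 2 cores, HERC5 held 3, of which a pair overlapped, and BST2 held 2 that overlapped. In IFIT1, IFI44 and HERC5 they were in the TTTC form. OAS3 held 2, SAMD9 and IFI44 held 1 each, and SAMD9L held 0 in this stretch. A match is a description of the letters and was not measured as a binding site.

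EMC10 was used to check the labels. Its log2 level was 9.20, 9.33 and 9.51 on the mock arrays, 11.57, 11.72 and 12.30 on the clone 7 arrays and 12.13, 12.18 and 11.75 on the clone 8 arrays. On the wild-type arrays it was 11.13, 10.43 and 10.69, above the mock line. All 6 clone arrays thus stood above the 6 control arrays in this gene, but the clones themselves overlapped. On the array labelled clone 7 replicate 3 the level (12.30) was above all clone 8 arrays. On the array labelled clone 8 replicate 3 the level (11.75) was nearest to that of clone 7 replicate 2 (11.72).

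Arrays of clones 7 and 8 did not group by their labels. Over the 18378 genes outside the set, each centred on its mean, the array labelled clone 7 replicate 3 correlated best with clone 8 replicate 2 (r = 0.77) and had r = −0.32 and −0.34 with the other clone 7 arrays. The array labelled clone 8 replicate 3 correlated best with clone 7 replicate 1 (r = 0.64) and had r = 0.09 and −0.40 with the other clone 8 arrays. Clone 8 replicate 1 in turn correlated best with the array labelled clone 7 replicate 3 (r = 0.48). The wild-type and mock arrays each correlated best with their own group. Among the 39 interferon-stimulated genes, the array labelled clone 7 replicate 3 was nearer to the other 2 clone 8 arrays than to the other 2 clone 7 arrays in 33, against 63.3% of the genes outside the set. For the array labelled clone 8 replicate 3 the reverse held in 29 of 39, against 55.8%. Why these arrays stood where they did was not tested. Groups were kept as labelled, and results that depend on the clones are given with all 12 arrays and with 10 arrays, without these 2. The 2 arrays were picked after the data were seen, and leaving out arrays that stand apart from their own group lowers the spread within it. As each was picked for its likeness to the other clone, leaving both out also tends to widen the difference between the clones. Counts and p-values of clone 8 against clone 7 with 10 arrays thus depend on this choice and describe the arrays kept.

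**Figure D1:**
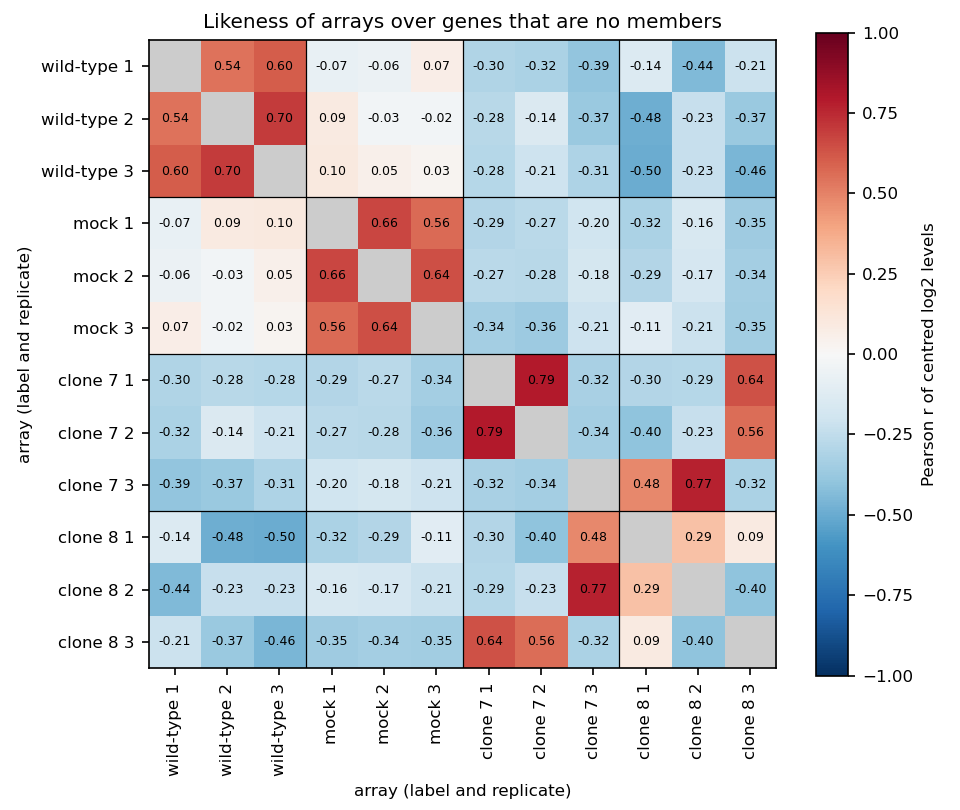
Pearson correlation of each pair of the 12 arrays (both axes, by label and replicate) over the 18378 genes that are not among the 39, with each gene centred on its mean. Lines separate the labelled groups and grey marks an array against itself. The array labelled clone 7 replicate 3 sat with clone 8 replicates 1 and 2 (r = 0.48 and 0.77), and clone 8 replicate 3 with clone 7 replicates 1 and 2 (r = 0.64 and 0.56).

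All levels are log2 values, and a difference of log2 values is called past the p limit at an adjusted p below 0.05 and past both limits when it was also at least 1.5-fold. IFI44L lay below its array's own lower quartile (7.00 to 7.12) on 11 of 12 arrays and RSAD2 on 6, so that both were near the dim end of the array. The other genes lay above it on every array. For USP18 the array has a second probe set that also carries the symbol USP41P, and this one was not used.

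Both clones together against mock showed small shifts in 6 genes, OAS1 and OAS3 among them. With all 12 arrays, 1 of 39 genes rose past the p limit, where 2.87% of all genes did, and 5 fell, where 3.51% did. Both limits were passed by 0 of 39, where 0.728% of all genes passed them in either direction. TRIM22 was the gene that rose, and OAS1, OAS3, USP18, BST2 and PARP14 fell. At an unadjusted p below 0.05 there were 14 of 39 and 3677 of all 18417 genes. The median difference of the 39 genes was −0.05, beside 0.01 over all genes.

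OAS1, OAS2 and OAS3 make 2′-5′ oligoadenylates on double-stranded RNA and so switch on RNase L, and they are neighbours on chromosome 12. OAS3 was at 10.28, 10.20 and 10.23 on the mock arrays, at 9.79, 9.87 and 9.69 on the clone 7 arrays and at 9.45, 9.78 and 9.95 on the clone 8 arrays. Wild-type arrays read 10.13, 10.25 and 10.18, so that every clone array lay below every control array. The difference from mock was −0.48 ± 0.09 (SE, 1.40-fold lower, limma adjusted p = 0.00828), and −0.51 ± 0.07 with 10 arrays. OAS1 read 9.20, 9.25 and 9.29 in mock, 9.06, 9.14 and 8.81 in clone 7, 8.80, 8.74 and 9.04 in clone 8 and 9.27, 9.27 and 9.17 in wild-type cells. It was lower on each clone array than on each control array, and differed from mock by −0.32 ± 0.08 (adjusted p = 0.0409). OAS2 read 8.31, 8.23 and 8.16 in mock, 8.07, 8.11 and 7.72 in clone 7, 7.76, 7.73 and 8.08 in clone 8 and 8.21, 8.19 and 8.18 in wild-type cells. Its groups did not overlap either, but with all 12 arrays its difference of −0.32 ± 0.10 missed the p limit (adjusted p = 0.0729), and with 10 arrays it passed (−0.31 ± 0.05, adjusted p = 0.0023). OASL, a relative without synthetase activity, differed by −0.01 ± 0.05. OAS1 lost its call in 10 of the 21 settings tried, and OAS3 in 1, without mock replicate 1 (adjusted p = 0.0562).

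TRIM22, a ubiquitin ligase that restricts several viruses, stood at 10.71 on each of the 3 mock arrays, at 11.17, 11.07 and 11.14 in clone 7, at 11.04, 11.22 and 10.86 in clone 8 and at 10.44, 10.46 and 10.54 in wild-type cells. All 6 clone arrays lay above all 6 control arrays. The difference from mock was 0.37 ± 0.07 (1.29-fold higher, adjusted p = 0.00833), and 0.41 ± 0.06 with 10 arrays. Without mock replicate 2 its adjusted p was 0.0529.

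BST2 (tetherin), which holds budding virions on the cell, read 8.09, 7.99 and 8.05 in mock, 7.86, 7.71 and 7.64 in clone 7, 7.69, 7.80 and 7.73 in clone 8 and 7.68, 7.52 and 7.63 in wild-type cells. The mock arrays were the highest 3, and wild-type and clone arrays overlapped. BST2 was 1.24-fold lower in the clones than in mock (−0.31 ± 0.06, adjusted p = 0.0124). USP18, the protease that removes ISG15 and restrains the receptor, read 9.43, 9.39 and 9.28 in mock, 9.0, 9.05 and 9.08 in clone 7, 9.21, 9.02 and 9.04 in clone 8 and 9.49, 9.36 and 9.54 in wild-type cells. Clone arrays were all below the control arrays, by −0.30 ± 0.06 against mock (adjusted p = 0.0159). PARP14, an ADP-ribosyl transferase, had mean levels of 9.96 ± 0.05 (SD, n = 3) in mock, 9.78 ± 0.01 in clone 7, 9.65 ± 0.10 in clone 8 and 9.92 ± 0.10 in wild-type cells. Its difference from mock was −0.24 ± 0.06 (adjusted p = 0.0319). These calls leaned on the mock arrays. Without mock replicate 1 the count past the p limit was 1, without replicate 2 it was 2, and without replicate 3 it was 3, while over all genes it went from 1175 to 402, 367 and 454.

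**Figure D2:**
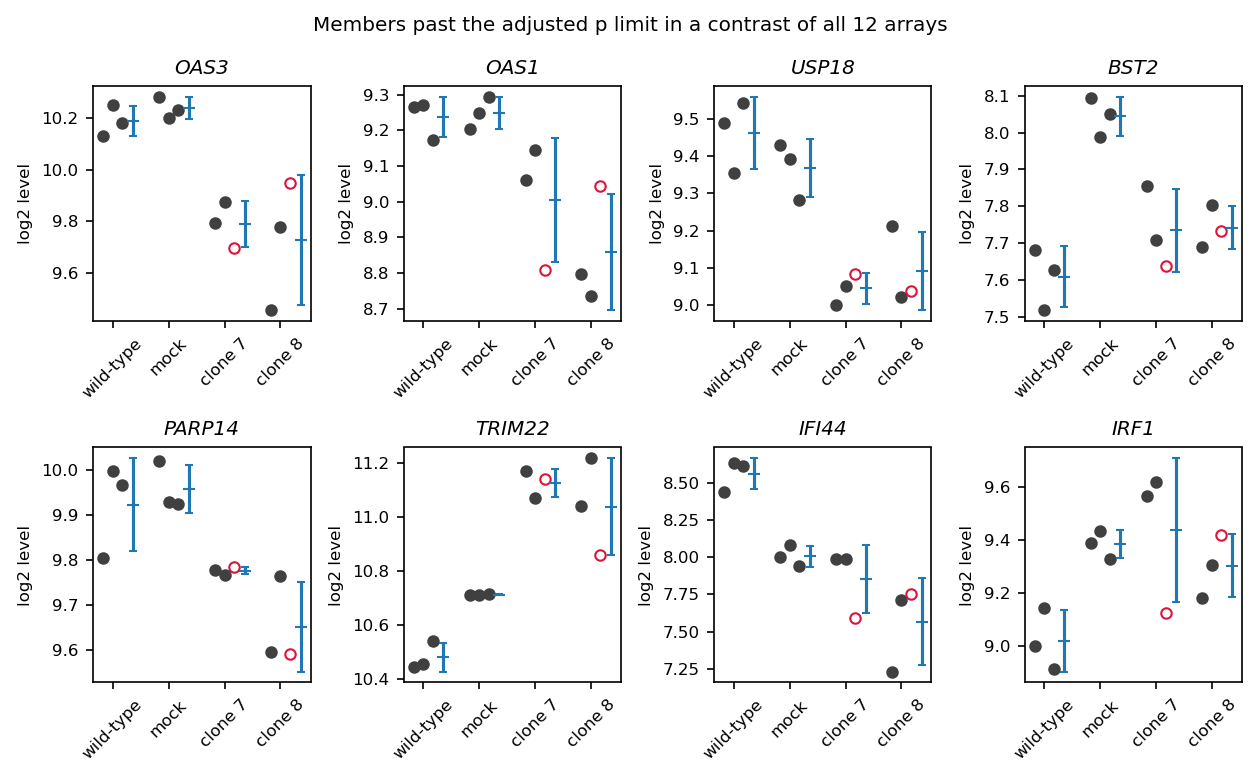
Log2 level (vertical axis) of 8 genes on each of the 12 arrays, by labelled group. Filled points are arrays, open red points are the arrays labelled clone 7 replicate 3 and clone 8 replicate 3, and blue marks are the group mean ± SD (n = 3). The clone arrays lie below mock for OAS3, OAS1, USP18, BST2 and PARP14 and above it for TRIM22, while IFI44 is highest and IRF1 lowest in wild-type cells.

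By non-overlap, 9 of 39 genes had all 6 clone arrays below all 3 mock arrays, where 8.39% of all genes did, and 1 had them above, where 5.77% did. The 9 were OAS1, OAS2, OAS3, IFIT3, USP18, BST2, SAMD9L, PARP14 and ADAR. ADAR, the deaminase that edits double-stranded RNA and keeps it from the sensors, differed by −0.20 ± 0.06 and missed the limit (adjusted p = 0.0873). IFIT3, a partner of IFIT1 in binding viral RNA, differed by −0.20 ± 0.09 (adjusted p = 0.257). Among the RNA sensors, IFIH1 (MDA5) differed by −0.19 ± 0.06 and EIF2AK2 (PKR), which stops translation on double-stranded RNA, by −0.19 ± 0.09, and DHX58 (LGP2) by 0.04 ± 0.05. None of these 3 passed the p limit with all 12 arrays.

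Several textbook readouts of an interferon response did not pass in this comparison. ISG15, the ubiquitin-like modifier, differed by 0.03 ± 0.07, IRF7 by 0.08 ± 0.07, MX1, a GTPase that traps viral nucleocapsids, by 0.16 ± 0.09, IFI27 by 0.15 ± 0.10 and IFI6 by −0.16 ± 0.07. CMPK2 and RSAD2 (viperin), neighbours on chromosome 2 that act on nucleotides, differed by −0.05 ± 0.07 and −0.02 ± 0.11. Of the antigen-processing genes on chromosome 6, PSMB8 differed by −0.03 ± 0.08, TAP1 by 0.08 ± 0.05 and PSMB9 by −0.24 ± 0.13. The factors IRF9 and IRF1 differed by −0.02 ± 0.09 and −0.01 ± 0.10. None of these passed the p limit, which does not show that they were equal.

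With each clone taken alone, clone 7 had 1 gene higher (TRIM22) and 3 lower (OAS3, USP18 and BST2) than mock past the p limit, where 1.82% and 1.32% of all genes did. Clone 8 had 1 higher (TRIM22) and 4 lower (OAS1, OAS3, BST2 and PARP14), where 1.97% and 3.12% did. In both, 0 of 39 genes passed both limits, where 0.700% and 0.760% of all genes did. Both comparisons share the mock arrays, and without any 1 of the 3 mock arrays each count fell to 0, while over all genes the counts went from 579 to between 182 and 217 and from 938 to between 222 and 272. In OAS3 the difference from mock was −0.45 ± 0.10 in clone 7 and −0.51 ± 0.10 in clone 8, and in TRIM22 it was 0.42 ± 0.08 and 0.33 ± 0.08. In BST2 it was −0.31 ± 0.07 and −0.30 ± 0.07.

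With the 2 arrays left out, more genes passed, as they did over the whole array. Clones against mock then had 1 higher and 11 lower past the p limit, where 5.47% and 7.65% of all genes were, and SAMD9L alone passed both limits, where 1.04% did. Clone 7 against mock had 3 higher (TRIM22, MX1 and MX2) and 6 lower, where 7.50% and 6.80% were, with 0 past both limits, where 2.17% did. Clone 8 against mock had 2 higher (TRIM22 and HERC5) and 14 lower, where 4.93% and 8.73% were, and 5 passed both limits, all lower, where 2.06% of all genes did. These 5 were SAMD9L (−1.36 ± 0.10), IFIT1 (−0.77 ± 0.09), IFI35 (−0.68 ± 0.07), SAMD9 (−0.65 ± 0.10) and OAS3 (−0.62 ± 0.09).

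Of the spreads within groups, those of the clones were the widest in the set. For the 39 genes the median SD was 0.07 (wild-type), 0.05 (mock), 0.14 (clone 7) and 0.18 (clone 8), beside 0.07, 0.05, 0.08 and 0.14 over all genes. SAMD9L, an antiviral and growth-restraining protein next to its relative SAMD9 on chromosome 7, had the largest SD in both clones, 0.63 and 0.72. It read 11.98, 11.96 and 10.88 in clone 7, 10.50, 10.89 and 11.89 in clone 8, 12.02, 12.02 and 12.10 in mock and 11.73, 11.77 and 11.83 in wild-type cells. A trio of arrays, clone 8 replicates 1 and 2 and the array labelled clone 7 replicate 3, was low, and the other clone arrays lay near the controls. SAMD9 read 11.43, 11.38 and 10.83 in clone 7, 10.61, 10.98 and 11.33 in clone 8, 11.43, 11.49 and 11.42 in mock and 11.15, 11.06 and 11.28 in wild-type cells, with the same 3 arrays lowest.

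IFIT1, which binds viral RNA lacking the host cap methylation, read 9.30, 9.34 and 8.38 in clone 7, 8.09, 8.42 and 9.18 in clone 8, 9.10, 8.98 and 9.01 in mock and 9.05, 9.21 and 9.18 in wild-type cells. IFI35, an interferon-induced leucine zipper protein, read 11.22, 11.31 and 10.55 in clone 7, 10.42, 10.50 and 11.29 in clone 8, 11.22, 11.19 and 11.00 in mock and 10.86, 10.88 and 10.90 in wild-type cells. In both genes the same 3 clone arrays were below every control array. MX2, a GTPase that blocks nuclear import of retroviruses, read 9.74, 9.85 and 9.16 in clone 7, 8.87, 9.0 and 9.78 in clone 8, 9.46, 9.29 and 9.37 in mock and 9.69, 9.79 and 9.72 in wild-type cells. HERC5, the main ligase for ISG15, ran the opposite way at 8.35, 8.27 and 9.22 in clone 7, 8.99, 9.40 and 8.28 in clone 8, 8.64, 8.72 and 8.57 in mock and 8.44, 8.59 and 8.69 in wild-type cells. The 3 arrays low in SAMD9L were the highest 3 in HERC5. Its neighbour HERC6 lay between 8.13 and 8.62 on all 12 arrays.

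**Figure D3:**
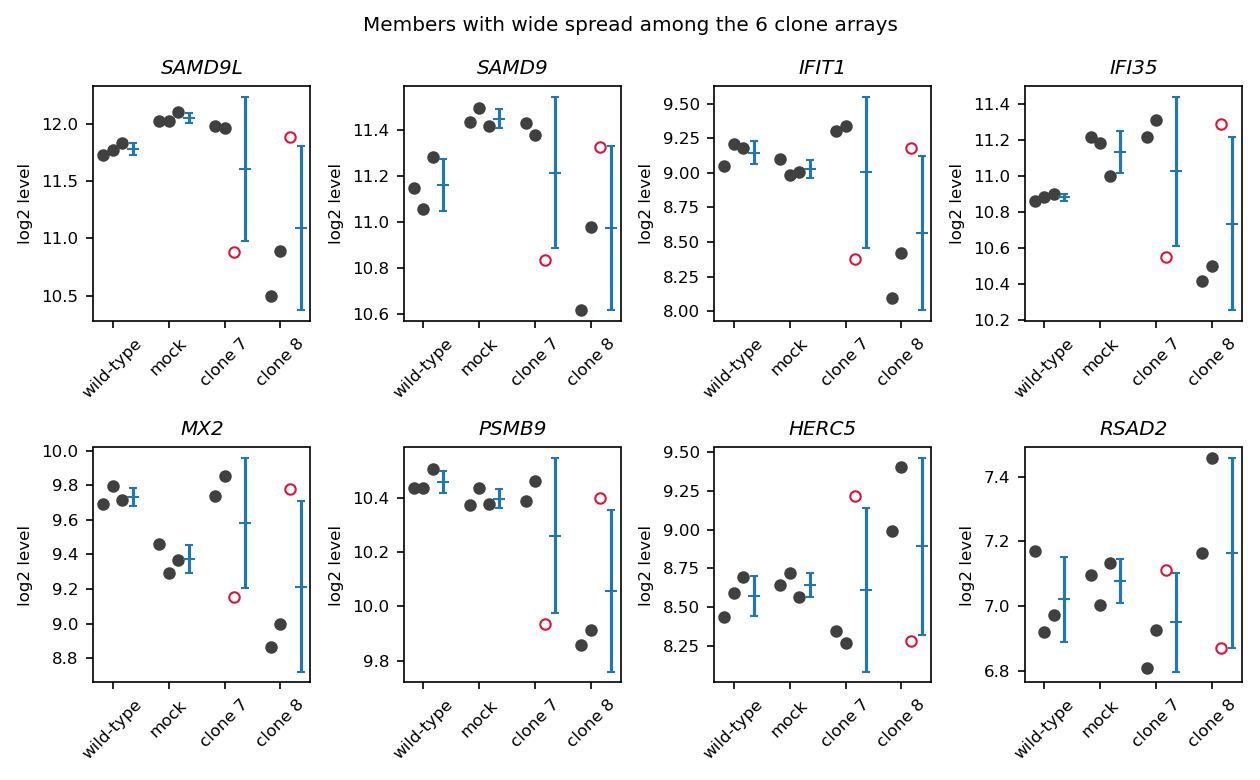
Levels (log2, vertical axis) of 8 genes with wide spread in the clones, 1 point per array in each labelled group. Filled points are arrays, open red points are the arrays labelled clone 7 replicate 3 and clone 8 replicate 3, and blue marks are the group mean ± SD (n = 3). In SAMD9L, SAMD9, IFIT1, IFI35, MX2 and PSMB9 clone 8 replicates 1 and 2 and the open clone 7 point are low, and in HERC5 they are high.

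Clone 8 against clone 7, as labelled, gave 0 of 39 genes past the p limit, as it gave 0 of all 18417 genes (0%). At an unadjusted p below 0.05 there were 4 of the 39 and 1328 of all genes. The fitted difference was −0.52 for SAMD9L, −0.44 for IFIT1, −0.37 for MX2 and 0.28 for HERC5, each with an adjusted p of 0.62 or more. With 10 arrays, 3 genes were higher and 15 lower in clone 8 past the p limit, where 6.52% and 10.7% of all genes were, and 1 higher and 5 lower passed both limits, where 3.35% did. SAMD9L was 2.42-fold lower (−1.28 ± 0.10, adjusted p = 1.4e-05), IFIT1 2.09-fold lower (−1.06 ± 0.10, adjusted p = 3.9e-05), MX2 1.82-fold lower (−0.86 ± 0.08) and IFI35 1.75-fold lower (−0.81 ± 0.08). SAMD9 was 1.52-fold lower (−0.61 ± 0.11) and HERC5 1.85-fold higher (0.89 ± 0.12, adjusted p = 0.00056). The median difference of the 39 genes was −0.22, beside 0.03 over all genes, and as labelled it was −0.09 beside 0.01. This comparison then rested on 2 arrays of each clone, with the spread pooled over the 4 groups. The choice of arrays itself set the clones apart, so that its p-values are no independent test of a difference between them.

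In the same 10 arrays the OAS genes were lower in clone 8 by −0.34 ± 0.07 (OAS1), −0.35 ± 0.07 (OAS2) and, without passing the p limit, −0.22 for OAS3 (adjusted p = 0.16). The regulators IRF9 (−0.43 ± 0.08) and IRF1 (−0.35 ± 0.08), the immunoproteasome subunit PSMB9 (−0.54 ± 0.06) and IFI44 (−0.51 ± 0.13) were lower past the p limit, as were IFIT2, IFIH1, MX1 and PARP9. RSAD2 (0.44 ± 0.11) and its neighbour CMPK2 (0.25 ± 0.06) were higher past it, with HERC5. ISG15 (0.20), OASL (0.21), XAF1 (0.20) and ISG20 (0.21) were above 0 without passing it.

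**Figure D4:**
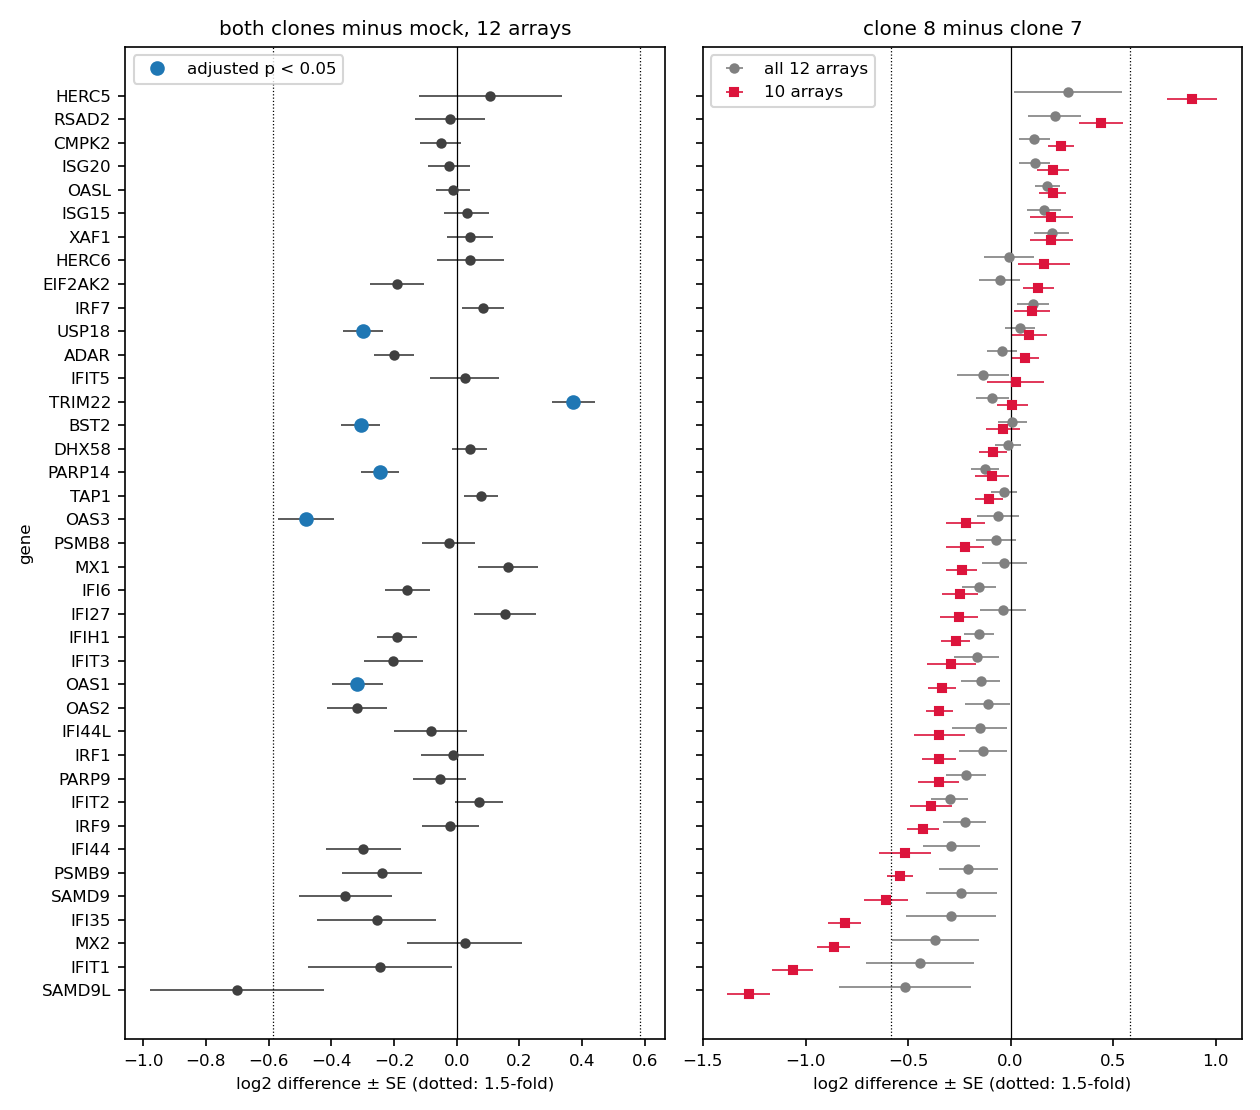
Log2 differences ± SE (horizontal axis) of the 39 genes (rows). The left panel gives both clones minus mock on 12 arrays, with blue points past the p limit, and the right panel clone 8 minus clone 7 on all 12 arrays (grey circles) and on 10 arrays (red squares). Dotted lines mark 1.5-fold. In the right panel SAMD9L lies at −0.52 with all arrays and at −1.28 with 10.

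The genes did not move as a single block. Over the 12 arrays the 741 pairs among the 39 genes had correlations from −0.88 to 0.95, with a median of 0.09. With SAMD9L, 10 genes correlated above 0.75 (PSMB9, SAMD9, IFIT1, IFIH1, OAS2, IFI35, OAS1, IRF9, OAS3 and MX2) and 12 below 0, down to −0.80 for HERC5. These points share 12 arrays in 4 groups, and no test was made on them. Of the 10, IFIT1, OAS3, SAMD9 and IFIH1 had an ISRE core in at least 1 promoter window, and OAS1, IFI35, IRF9 and PSMB9 had none in theirs. Of the 12, IFIT5, EIF2AK2, ISG15, ISG20, RSAD2 and HERC5 had one, and HERC6, XAF1 and CMPK2 had none. The rest were not in the promoter table.

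**Figure D5:**
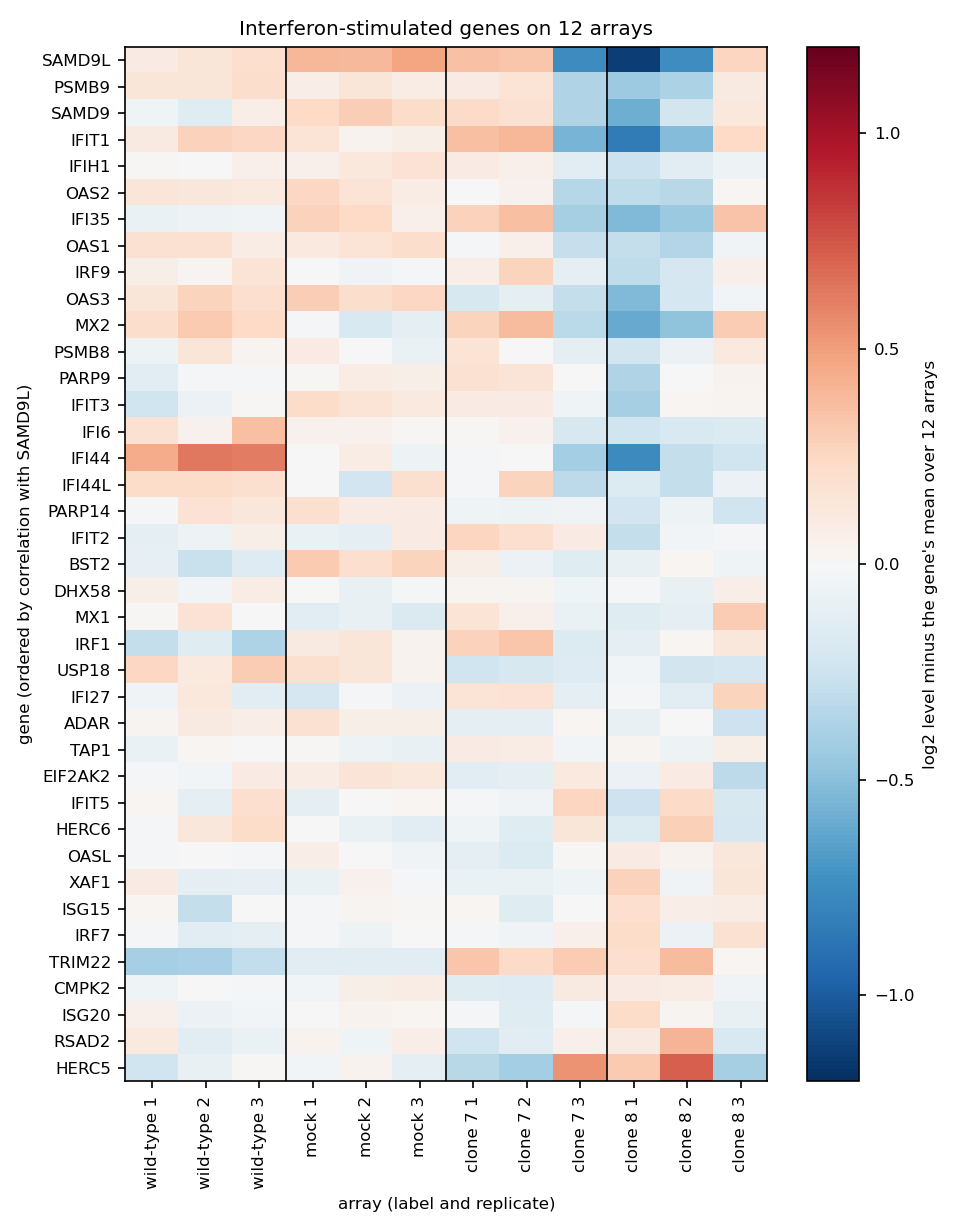
Log2 level minus the mean of the gene over 12 arrays (colour) for the 39 genes (rows, ordered by correlation with SAMD9L) on each array (columns, by label and replicate). The upper rows are low on the array labelled clone 7 replicate 3 and on clone 8 replicates 1 and 2, and HERC5 in the lowest row is high on them.

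Genes that lie side by side did not always shift alike. On chromosome 10, IFIT1 differed by −1.06 between the clones with 10 arrays and IFIT5, the next gene in the order among coding genes, by 0.02, with IFIT2 at −0.39 and IFIT3 at −0.29. SAMD9 and SAMD9L, neighbours on chromosome 7, differed by −0.61 and −1.28, and MX2 and MX1 on chromosome 21 by −0.86 and −0.24. Around the IFIT genes, 21 of 22 coding genes from RNLS to HTR7 were measured. ACTA2, smooth muscle actin, and FAS, a death receptor, passed both limits in the clones against mock, both higher (0.76 ± 0.14 and 0.63 ± 0.14), and the 4 IFIT genes passed neither limit there.

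Mock against wild-type compared 2 controls that differ by the empty vector, selection and line. With all 12 arrays 1 of 39 genes rose past the p limit, where 1.0% of all genes did, 0 fell, where 1.24% did, and 0 passed both, where 0.673% did. BST2 was the gene, 1.35-fold higher in mock (0.44 ± 0.07, adjusted p = 0.00687), and it passed in each of the 21 settings tried. By non-overlap, 8 of 39 genes had all mock arrays above all wild-type arrays, where 15.6% of all genes did, and 6 below, where 13.3% did. With 10 arrays, which changes only the pooled spread here, 4 were higher and 2 lower past the p limit, where 3.41% and 3.66% of all genes were, and 0 passed both limits, where 1.08% did. BST2, IRF1 (0.36 ± 0.07), IFI35 (0.25 ± 0.07) and TRIM22 (0.23 ± 0.06) were higher, and IFI44 (−0.55 ± 0.11) and MX2 (−0.36 ± 0.06) lower. SAMD9 and SAMD9L stood 0.29 and 0.27 higher in mock without passing.

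Both clones against wild-type gave 2 genes higher and 6 lower past the p limit, where 4.63% and 5.32% of all genes were, and 2 past both limits, where 1.58% did. This comparison shares the clone arrays with that against mock. IFI44, a cytoplasmic protein of the antiviral programme, read 8.44, 8.63 and 8.61 in wild-type cells, 8.00, 8.08 and 7.94 in mock, 7.99, 7.99 and 7.59 in clone 7 and 7.23, 7.71 and 7.75 in clone 8. Wild-type arrays were the highest 3, and the clones lay 1.81-fold lower (−0.85 ± 0.12, adjusted p = 0.000943). Its neighbour IFI44L, near the dim end, differed by −0.31 (adjusted p = 0.12). TRIM22 was 1.52-fold higher in the clones (0.60 ± 0.07, adjusted p = 0.000232). IRF1, a factor that acts at ISRE and related sites, read 9.0, 9.14 and 8.91 in wild-type cells, 9.39, 9.43 and 9.33 in mock, 9.57, 9.62 and 9.13 in clone 7 and 9.18, 9.31 and 9.42 in clone 8, and was 0.35 ± 0.10 higher in the clones (adjusted p = 0.0474) with overlap at the array labelled clone 7 replicate 3. OAS1, OAS3, IFI6, USP18 and PARP14 were lower past the p limit, by −0.21 to −0.43. In the 21 settings tried IRF1 passed in 9 (adjusted p up to 0.218), PARP14 in 7 (up to 0.226), OAS1 in 11, IFI6 in 18, OAS3 in 20 and USP18 in 21. With 10 arrays 2 were higher and 10 lower, where 7.42% and 9.65% of all genes were, and the same 2 genes passed both limits, where 1.88% of all genes did. By non-overlap 1 of 39 genes (TRIM22) had every clone array above every wild-type array, where 6.88% of all genes did, and 7 were below (OAS1, OAS2, OAS3, IFI44, USP18, PARP14 and ADAR), where 8.38% were.

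Most ligands of the pathway were dim on the array. Of 15 listed interferon genes 14 were measured, and 11 of these, IFNB1 among them (mean 5.80), lay below the lower quartile of their own array on all 12 arrays. The lambda interferons IFNL1, IFNL2 and IFNL3 lay above it on every array, with mean log2 levels of 7.95, 8.96 and 10.08, and IFNL2 and IFNL3 are close copies that probes may not tell apart. In the 6 contrasts, 0 of 14 passed the p limit with 12 or with 10 arrays. The receptor chain IFNAR1 was higher in clone 7 than in mock (0.40 ± 0.10, adjusted p = 0.0477) and stood at 0.28 ± 0.08 for both clones (adjusted p = 0.0777), and IFNAR2 stood at 0.15 ± 0.08 (adjusted p = 0.33). Of 6 receptor chains 1 rose past the p limit in the clones against mock, IFNGR2 (0.40 ± 0.06), a gene named after its value was seen. With 10 arrays 3 of the 6 rose and 0 fell, where 5.47% and 7.65% of all genes did. Of 8 measured kinases and factors 0 rose and 1 fell in the clones against mock, and with 10 arrays 1 rose and 1 fell. With all 12 arrays the gene was IRF2, a repressor at sites of the IRF family (−0.42 ± 0.10, adjusted p = 0.0236). Against wild-type cells IRF2 (−0.39 ± 0.10, adjusted p = 0.0242) and the kinase JAK2 (−0.48 ± 0.08, adjusted p = 0.00237) were lower in the clones. Both genes were named after their values were seen. Levels of the kinases JAK1 and TYK2 stayed within 11.81 to 12.11 and 10.26 to 10.43 on all 12 arrays, and IRF3, a factor that induces interferon beta, within 10.14 to 10.56.

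Among 15 sensors and adaptors, 0 rose and 1 fell past the p limit in the clones against mock, and with 10 arrays 1 rose and 1 fell. With all 12 arrays the gene was TLR3, the endosomal receptor for double-stranded RNA. It read 9.50, 9.46 and 9.35 in mock, 9.17, 9.16 and 8.51 in clone 7, 8.22, 8.59 and 8.93 in clone 8 and 9.01, 9.09 and 9.25 in wild-type cells, and differed from mock by −0.68 ± 0.16 (adjusted p = 0.0264). Of 10 measured class I presentation genes outside the set 0 passed, and of 12 restraints of the pathway 1 fell, with the same counts on 10 arrays. In a list of 56 further interferon-stimulated genes, 1 rose and 3 fell past the p limit, where 2.87% and 3.51% of all genes did. TNFSF10 (TRAIL), a death ligand, was the one past both limits, at −0.83 ± 0.16 (adjusted p = 0.00953) against mock, and it was 0.86 ± 0.18 higher in mock than in wild-type cells (adjusted p = 0.0294). Its clone and wild-type levels overlapped, and clones against wild-type stood at 0.03 ± 0.16. With 10 arrays 1 of the 56 genes rose and 9 fell in the clones against mock, where 5.47% and 7.65% of all genes did.

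The other cell types whose RNA could bear on these genes were looked for by their markers. Wild-type and transfected cells had the glial and mesenchymal genes VIM (mean 13.60) and CD44 (13.43), while S100B and AQP4 lay below the lower quartile on all 12 arrays. GFAP, SOX2 and OLIG2 had means of 8.71, 8.54 and 8.35. The epithelial genes KRT8, EPCAM and CDH1 had means of 13.55, 7.77 and 7.30. Of 3 endothelial markers PECAM1 lay below the lower quartile on all 12 arrays, and VWF and CDH5 (means 7.60 and 8.19) on 0. Of 3 fibroblast markers DCN lay below the lower quartile on all 12 arrays, and PDGFRA (mean 7.42) and COL1A1 on 0. COL1A1 had means of 10.48 (wild-type), 9.76 (mock), 9.72 (clone 7) and 9.77 (clone 8). Of the plasmacytoid dendritic markers, CLEC4C lay below it on 7 arrays and IL3RA on 10. Of 7 leukocyte markers 6 were measured. LYZ was below the lower quartile on all 12 arrays, CD3E on 6 and PTPRC on 3, and CD14, ITGAM and CD68 were above it on every array (means 8.16, 7.97 and 11.48). The mean level over the 6 ran from 7.95 to 8.08 (wild-type), 7.94 to 7.95 (mock), 7.87 to 8.00 (clone 7) and 7.87 to 8.07 (clone 8), and 0 of the 6 passed the p limit in the clones against mock. CD68, a lysosomal protein abundant in macrophages, varied inside the clone groups. It read 12.11, 12.06 and 10.71 in clone 7, 10.75, 10.85 and 12.28 in clone 8, 11.53, 11.63 and 11.58 in wild-type cells and 11.49, 11.48 and 11.35 in mock, so that the 3 arrays low in SAMD9L were its lowest. With 10 arrays it passed both limits in clone 7 (0.64 ± 0.07) and in clone 8 (−0.64 ± 0.07) against mock and in clone 8 against clone 7 (−1.28 ± 0.07, adjusted p = 7.17e-07), and with all 12 arrays in none of these. The part of CD68 in the results above was not tested. Against wild-type cells, PTPRC was lower in the clones (−0.63 ± 0.16, adjusted p = 0.0277) and ITGAM higher (0.32 ± 0.08). NES, an intermediate filament of neural progenitors, fell in the clones past both limits (−0.73 against mock), and its part in the results above was not tested. Of 3 fibroblast markers 1, COL1A1, fell past both limits in mock and in the clones against wild-type cells. Over all genes 0.673% and 1.58% passed them, in either direction. The part of COL1A1 in the results above was not tested either.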

How the data were processed

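Levels were measured in 12 cultures of A172 cells (4 groups of 3 arrays). The deposited log2 expression values, 1 per probe set and array, were already summarized and normalized when the authors deposited them. The submitters' processing notes name Partek (no version), the study's methods dChip or Partek. How probes were summarized is not given in the sources used. The 33297 probe sets had array medians of 8.60 to 8.67 and no missing value. The platform annotation listed 1 symbol for 19460 probe sets, several for 1754 and none for 12083. For genes with several probe sets (769) the one with the highest mean was kept, which left 18417 genes. PSMB8, PSMB9 and TAP1 each had 3 probe sets with identical values.

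For each gene a model of 4 group means was fitted with limma 3.58.1 (lmFit and eBayes, R 4.3.3, with the package data.table, version 1.17.8), without the replicate number, with 6 contrasts and Benjamini-Hochberg adjustment over all 18417 genes. Calls used an adjusted p below 0.05, alone or with at least 1.5-fold. The script was tested on simulated data. Members and gene lists were chosen with earlier results of these data known. Values on each array were given for genes past both limits in any contrast and for the 6 largest differences in clones against mock and in mock against wild-type, with other calls added, and pathway genes were named where past both limits, with fixed receptor and kinase genes. Arrays have no read depth, and their number limits the precision. The alternatives were another normalization, centring, a filter on dim genes, the mean of probe sets, trend and robust moderation, array weights, the compared groups alone, a replicate block, each array left out and 2 arrays left out.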

Additional observations from a re-analysis of the deposited data

Results flagged for a closer look

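OASL, the family member without synthetase activity, drew attention because all 3 clone 7 arrays lay below the mock mean of 7.76 (7.64, 7.59 and 7.76, the last lower only in the third decimal) and all 3 clone 8 arrays above it (7.85, 7.79 and 7.89). The mock arrays themselves read 7.83, 7.75 and 7.71, so that clone 7 replicate 3 and clone 8 replicate 2 lay inside the mock range. The difference between the clones was 0.18 (log2), and the direct contrast of clone 8 with clone 7 missed the p limit (limma adjusted p = 0.62). With 10 arrays it was 0.21 and also missed it (adjusted p = 0.0521).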

How the results depend on the processing

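Under the alternatives 0 of the differences past the p limit with all 12 arrays and 0 of the median differences changed sign. Differences that passed no limit did: between 12 and 10 arrays 4 of 39 genes changed sign in clones against mock, 7 in clone 7 against mock (IFIT1 from −0.02 to 0.29), 2 in clone 8 against mock, 6 in clone 8 against clone 7 and 2 in clones against wild-type. Counts over all 18417 genes are mostly given beside those of the 39 genes, and they did not always move the same way. Clone 7 against mock had 4 of the 39 and 579 of all genes past the p limit. Without clone 7 replicate 3 it had 2 of the 39 and 977 of all. Quantile normalization, centring on the median, leaving out dim genes, the mean of probe sets, and trend and robust moderation kept each count of genes past the p limit within 1.5 times. Array weights gave 13 genes for clones against mock (3545 of all genes), 17 for clone 7 against mock (5426) and 6 for mock against wild-type (2399). For clone 8 against mock they gave 1 past both limits (177 of all genes). With only the compared groups fitted the counts were 0 for clone 8 against mock (149 of all genes), 9 for mock against wild-type (1951) and 4 for clones against wild-type (1007). A pairing of the samples by replicate number was not clear. Of 18 same-number pairs of arrays, 4 correlated above 0.1 (r from −0.83 to 0.45), and 2 of 12 arrays correlated best with their own number. The lowest r was that of the arrays labelled clone 7 and clone 8 replicate 3, which each sit with the other clone. These correlations thus cannot exclude a pairing. With a replicate block the counts were 1 for clone 7 against mock (330 of all genes), 1 for clone 8 against mock (500) and 5 for clones against wild-type (1327). Leaving out 1 array at a time gave 1 to 8 genes for clones against mock (0 to 1 past both limits), 0 to 4 for clone 7 against mock, 0 to 10 for clone 8 against mock (0 to 4 past both, median difference −0.16 to −0.045), 1 to 3 for mock against wild-type and 4 to 10 for clones against wild-type (1 to 2 past both). Over all genes the counts past the p limit ran from 367 to 2111, 182 to 977, 222 to 3353, 165 to 616 and 775 to 3503, in the same order. Past both limits, all-gene counts ran from 107 to 178 for clones against mock and from 88 to 277 for clone 8 against mock. For clones against wild-type they ran from 228 to 342. For clone 8 against mock the largest gains came without clone 8 replicate 2 or 3 (10 genes each), and without clone 7 replicate 3 it had 9. Leaving out both arrays that correlate best with the other clone, chosen after seeing the data, gave 12 genes (1 past both) for clones against mock, 9 for clone 7 and 16 (5 past both) for clone 8 against mock, 18 (6 past both, median difference −0.22) for clone 8 against clone 7 and 6 for mock against wild-type. In clone 8 against clone 7, no gene of the 18417 was called under any alternative but this, where 3166 were. Calls that held in all 21 settings were BST2 in mock against wild-type and IFI44, USP18 and TRIM22 in clones against wild-type.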

Other observations

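Part of the interferon-stimulated genes outside the set differed between the clones with 10 arrays, a choice that itself tends to widen such differences. In the list of 56, 0 passed the p limit in clone 8 against clone 7 as labelled, and with 10 arrays 25 were lower and 0 higher in clone 8, 10 of them past both limits, where 10.7% and 6.52% of all genes were and 3.35% passed both. IFI30, a lysosomal reductase, read 11.16, 11.30 and 10.19 in clone 7, 10.00, 10.24 and 11.18 in clone 8 and 10.90, 10.88 and 10.80 in mock. IFITM1, which blocks viral entry, read 9.90, 10.01 and 8.96 in clone 7, 8.80, 8.97 and 10.02 in clone 8 and 9.54, 9.58 and 9.55 in mock. C1S, a complement protease, and WARS1, a tRNA synthetase, were lower in clone 8 by −1.07 ± 0.10 and −0.94 ± 0.09 with 10 arrays. In these 4 genes the clones lay on either side of mock with 10 arrays, but not in every gene of the list. TNFSF10 read 8.45, 8.54 and 8.34 in mock. On the arrays kept it read 7.95 and 8.06 in clone 7 and 7.01 and 7.47 in clone 8, below mock in both. IFITM1 stood at 0.40 ± 0.07 in clone 7 and at −0.67 ± 0.07 in clone 8 against mock, and WARS1 at 0.65 ± 0.08 and −0.29 ± 0.08.

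Among the 9180 other genes with an SD over the arrays at or above the median SD, those most like the mean of the 39 genes over the 12 arrays were MIA3 (r = 0.99), SQOR, ACBD5, MPC1, CLUAP1, PCDHB8, RMP64, NECTIN3, SLC71A2 and LYST (r = 0.97). These correlations share 12 arrays in 4 groups and carry no test.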
